A study of Rattus with 6 samples.

Results

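Translation initiation factors are the proteins that bring the first transfer RNA, the messenger RNA and the ribosome together. Their genes were taken from the deposited table of read counts as every protein-coding row whose symbol begins with Eif and a digit from 1 to 6, leaving out the Eif2ak kinases. This gave 49 genes among the 20742 listed, of which 16544 are protein-coding. They comprised 3 subunits of eIF2, 5 of eIF2B, 13 of eIF3, 16 members of the eIF4 group and 12 other factors, and 48 of the 49 had enough reads to be tested. Gene names follow the table, where each identifier is the prefix gene- and the symbol.

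The data are RNA sequencing of H9C2 cells, a line derived from embryonic rat heart, in 6 libraries. Cells in 3 libraries carried a control plasmid and cells in the other 3 overexpressed RBM25, an RNA-binding protein that acts with the U1 snRNP in splice site choice. Both groups share the cell line, and the labels record no time point, batch or culture of origin, so p-values speak only for the scatter of these 6 libraries, some or all of it possibly technical. How RBM25 was introduced, its promoter, the species of its sequence and whether the cells form 1 clone are likewise not stated there.

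Libraries held 25543849 to 33130256 counted reads. Rbm25, on chromosome 6, lay between 44.5 and 49.2 CPM (counts scaled to equal library size) in the control libraries and between 55.9 and 60.1 CPM in the RBM25 libraries, a log2 change (the fitted log2 fold change, RBM25 over control) of 0.30 ± 0.047 (SE; edgeR adjusted p = 0.0011); the exact two-sided permutation test gave p = 0.1, the smallest that 3 libraries against 3 allow. The call was not kept without control replicate 2 (log2 change 0.28, edgeR adjusted p = 0.0842). Rbm25l1, a gene similar to Rbm25, had 5 reads over the controls and 366 over the RBM25 group, and counting may assign a read of one to the other. Of the muscle and heart markers checked, Casq2, Tnnt2, Myod1, Myog, Nkx2-5, Gata4 and Des were present, at control means of 9.25 to 329 CPM, whereas Actc1 was at 0.776 CPM and Myh7, the slow myosin heavy chain, had 1 read over the controls and 3 over the RBM25 group. Over the 9 markers the summed level was 545 to 561 CPM in controls and 557 to 610 CPM with RBM25. The summed endothelial markers stayed at or below 0.129 CPM in every library, and Epcam and Cdh1, which define epithelial cells, had 1 and 2 reads in all, while Krt8 and Cd14 made up nearly all of the summed epithelial markers (at most 28.6 CPM in controls and 29.8 CPM with RBM25) and leukocyte markers (at most 35.6 and 36.3 CPM). The third RBM25 library differed most from its own group: per degree of freedom, the chi-square of its counts was 5.88 against replicate 1 and 4.55 against replicate 2, where the other pairs within a group gave 3.07 to 3.32. In bulk RNA of this kind, fewer cells in some state and less RNA per cell cannot be told apart.

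Initiation begins when eIF2, bound to GTP, carries the initiator transfer RNA to the small ribosomal subunit, to which eIF3, eIF1, eIF1A and eIF5 also bind. The eIF4 group brings the messenger RNA: eIF4E holds the cap, eIF4G is the scaffold and eIF4A unwinds the leader, while the eIF4E-binding proteins block the contact between eIF4E and eIF4G. When the start codon is found eIF2 hydrolyses its GTP, eIF5B joins the large subunit, and eIF2B reloads eIF2 with GTP. Phosphorylation of eIF2 by the Eif2ak kinases turns it into an inhibitor of eIF2B, which is how many kinds of stress lower protein synthesis.

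In the cells that overexpressed RBM25, 1 of the 48 tested genes passed an edgeR adjusted p under 0.05, Eif2b2, the beta subunit of eIF2B. Its fitted change was -9.75% (95% interval -13.9% to -5.35%). It did not pass in 5 of the 6 fits that leave out 1 library, nor by DESeq2. The other 47 did not pass with all libraries. In simulated data edgeR recovered 12.1% of 1.1-fold changes and 85.3% of 1.2-fold changes in genes at 8 CPM or more. Those shares rest on 33 and 34 genes, which were not matched to the members for read depth. The other 47 therefore cannot be taken as unchanged. Of the 129 calls edgeR made in the simulated data, 12 were on genes that had no change. Over all 12882 genes tested, 52 were called, or 0.404%, so a single call among 48 genes is a small count on which to compare shares. Fitted log2 changes of the 48 lay between -0.15 and 0.17, with 23 above 0 and 25 below. Their median was -0.0044, beside -0.0021 over all genes tested, and their median size without regard to sign was 0.039, beside 0.060. The comparison was not matched for read depth: all genes tested include rarely read genes, and each member had at least 212 reads per library. DESeq2 called 0 of the 49, with 8 at an unadjusted p under 0.05. The share of all genes at such a p by DESeq2 is not given, so its counts here and below have none to be read against.

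At an unadjusted p under 0.05 there were 10 members, 20.8% of those tested, where the share of all tested genes was 11.2%. These shares were not matched for read depth either. The 10 members divided evenly by direction, with 5 above control (Eif1a, Eif2s1, Eif3m, Eif4a2 and Eif5b) and 5 below (Eif2b2, Eif3f, Eif4b, Eif4ebp2 and Eif4g1). The 3 RBM25 libraries all lay above the 3 control libraries for 6 members, against 8.31% of all genes, and all below for 4 members, against 7.94%. Each tested member was read at least 212 times in each library. The coefficient of variation between replicates of a group was 0.102% to 14.3%, with a median of 2.36%.

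**Figure D1:**
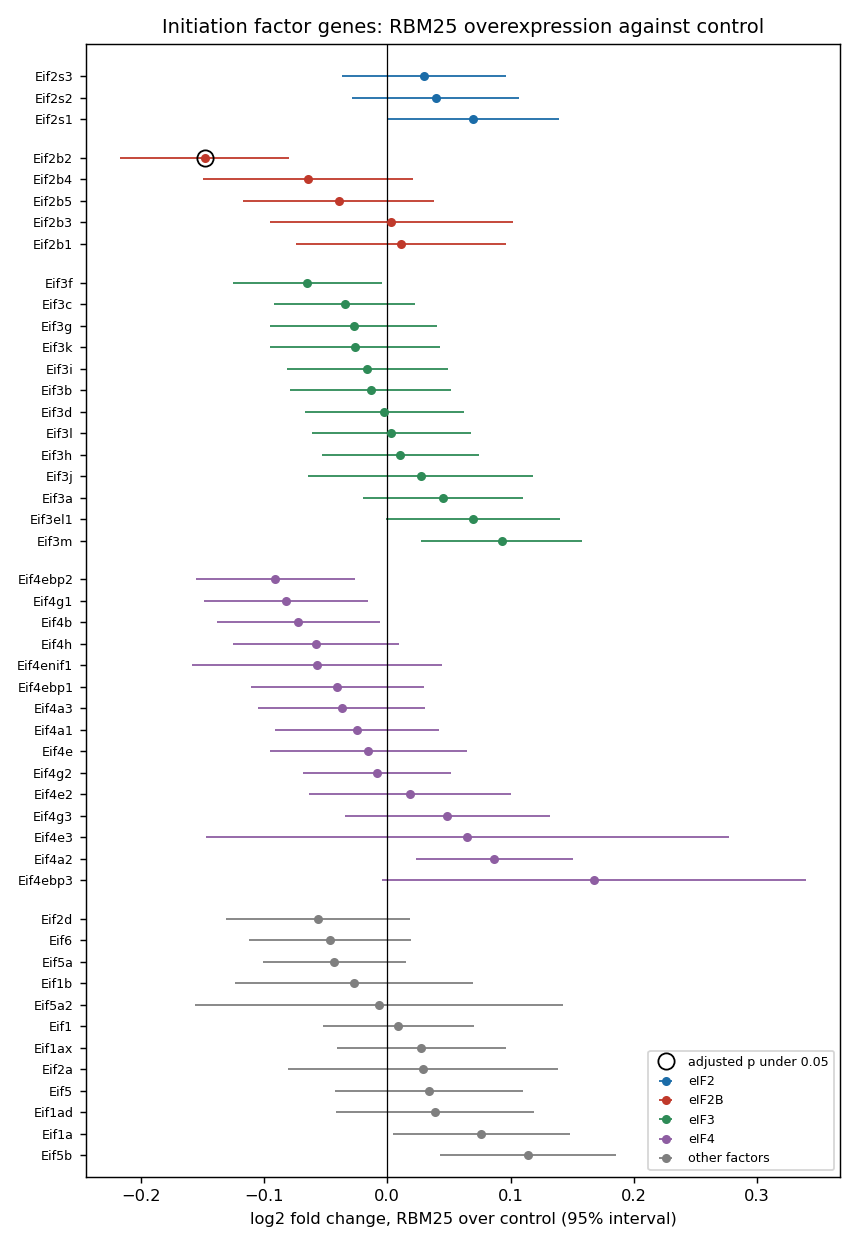
Log2 change of each of the 48 tested initiation factor genes, RBM25 over control (horizontal axis), with its 95% interval from the edgeR fit, grouped by complex and coloured as in the key. Eif2b2, at -0.15, is the only circled gene (adjusted p under 0.05), and 38 of the 48 intervals include 0.

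Levels between genes can be compared only per gene length, for which the deposited FPKM values, which divide fragments by gene length and by library size, serve. In control libraries the most abundant member was Eif5a, a factor that helps the ribosome through difficult peptide bonds, at 809 ± 7.89 FPKM (SD, n = 3), which placed it 122 among the 20395 genes with an FPKM value. It was followed by the helicase gene Eif4a1 at 434 ± 16.6 FPKM and by Eif1, which guards start codon choice, at 427 ± 5.85 FPKM. At the low end were Eif5a2, the tissue-restricted relative of Eif5a, at 2.80 ± 0.231 FPKM, and Eif4e3, a relative of the cap-binding protein, at 2.94 ± 0.0737 FPKM. Eif4e1b, an eIF4E relative of germ cells, was in effect absent, with 1 read in 1 control library and none in the RBM25 libraries, where a count of 0 allows up to 0.0324 CPM (3 counts over the group, counting error only). It was the 1 member that could not be tested.

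**Figure D2:**
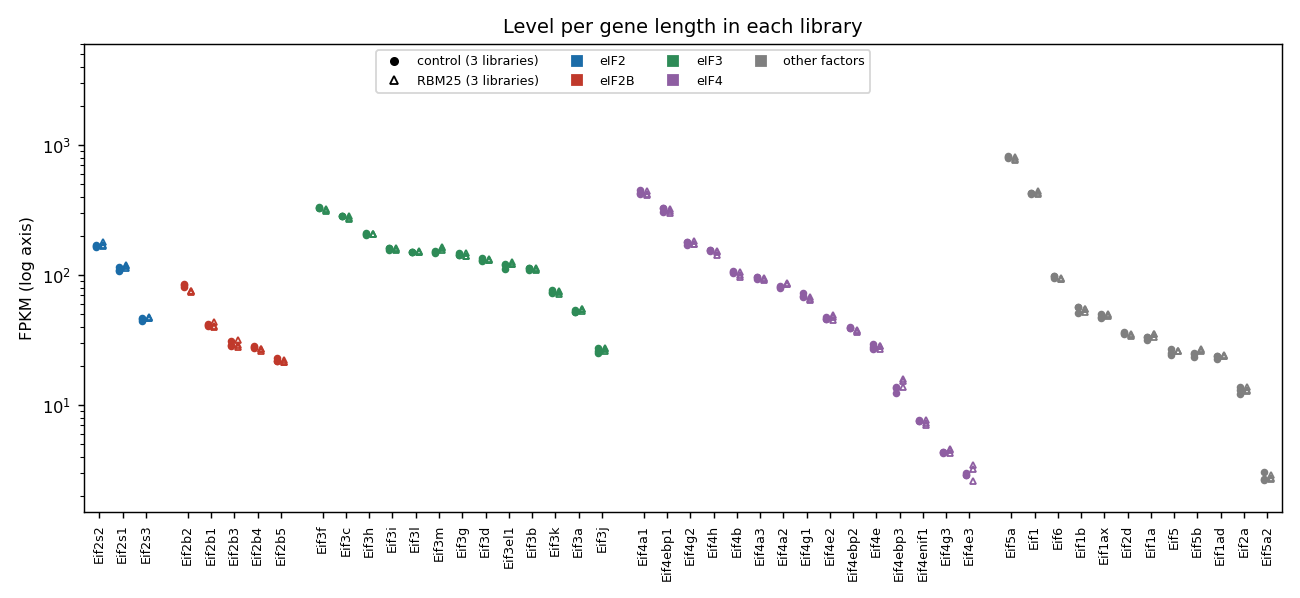
FPKM of each tested initiation factor gene in each library (log axis), ordered within each complex by the control mean, with filled circles for the 3 control and open triangles for the 3 RBM25 libraries. The members span Eif5a at 809 FPKM to Eif5a2 at 2.80 FPKM, a far wider range than any shift between the groups.

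The messages for the subunits of 1 complex were not present at 1 level. Within eIF2 the beta subunit gene Eif2s2 was the most abundant and the gamma subunit gene Eif2s3 the least, with control means of 167 and 45.9 FPKM, 3.65 times apart. Within eIF2B the order ran from Eif2b2 at 83.1 ± 2.51 FPKM through Eif2b1 (alpha) at 41.1 ± 0.705 FPKM, Eif2b3 (gamma) at 29.5 ± 1.53 FPKM and Eif2b4 (delta) at 27.9 ± 0.584 FPKM to Eif2b5, the catalytic epsilon subunit, at 22.2 ± 0.792 FPKM (SD, n = 3). Eif2b3 and Eif2b4 overlapped in their control libraries and could not be ordered. The gene that fell was therefore the most abundant of the 5, at 2.75 ± 0.101 times the mean of the other 4 in FPKM.

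Within eIF2B, the fall of Eif2b2 was seen in every library of the group. Control replicates 1, 2 and 3 had 133, 136 and 127 CPM. RBM25 replicates 1, 2 and 3 had 120, 118 and 119 CPM. The 3 RBM25 values were close to each other and all below the lowest control value, so the groups did not overlap. The means were 132 ± 4.20 CPM and 119 ± 1.07 CPM (SD, n = 3), and the log2 change was -0.15 ± 0.033 (SE; edgeR adjusted p = 0.0399). Eif2b2 is on chromosome 6, as listed in the deposited table.

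The call was near the threshold. The fitted value stayed between -0.17 and -0.13 in the 6 fits that leave out 1 library, yet 5 of them lost the call. The edgeR adjusted p was 0.402 without control replicate 2, 0.246 without RBM25 replicate 2, 0.117 without control replicate 1, 0.0800 without control replicate 3 and 0.0525 without RBM25 replicate 1. It became 0.00602 without RBM25 replicate 3. DESeq2 gave an adjusted p of 0.0723 with the same log2 change of -0.15. The direction was thus the same in every fit shown, and the size varied less than the evidence for it.

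**Figure D3:**
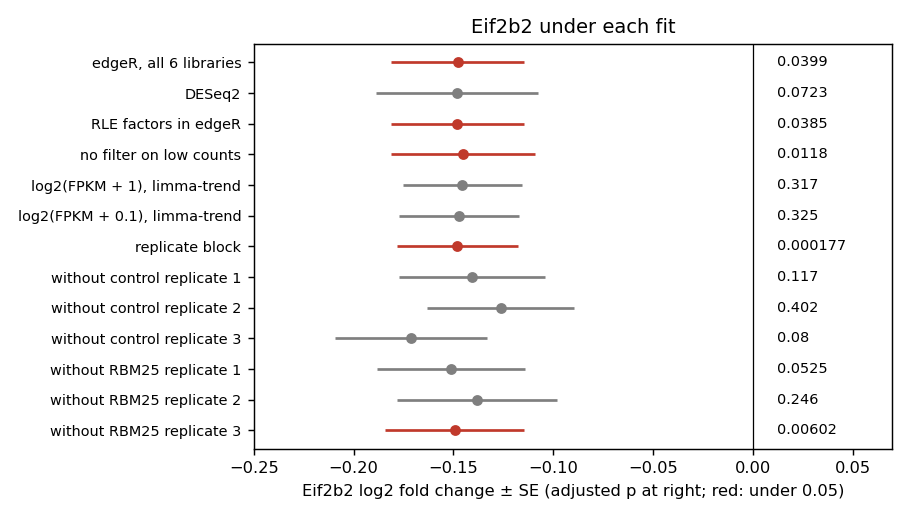
Log2 change of Eif2b2 with its SE (horizontal axis) under edgeR with all 6 libraries and under each alternative fit, with the adjusted p at the right and fits under 0.05 in red. The estimates lie between -0.17 and -0.13, while the adjusted p ranges from 1.77e-04 with the replicate number as a block to 0.402. In simulated data the block fit called 20 genes that had no change, against 12 without the block.

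None of the other 4 eIF2B subunit genes passed. The nearest was Eif2b4, which was at 55.4, 57.8 and 55.8 CPM in the control replicates and at 53.0, 54.9 and 53.8 CPM in the RBM25 replicates, without overlap between the groups (log2 change -0.065 ± 0.041 SE, edgeR adjusted p = 0.592). Eif2b5 had a log2 change of -0.039 ± 0.038, with overlapping groups, and those of Eif2b1 and Eif2b3 were 0.011 and 0.0032. The sign of these last genes differed between fits that leave out 1 library (-0.030 to 0.041 for Eif2b1 and -0.043 to 0.048 for Eif2b3). The median over the 5 subunits was -0.039. It depended on 1 library, being -0.0084 without control replicate 1. Eif2b2 made up 40.7 ± 0.888% of the summed FPKM of the 5 subunits in controls and 38.6 ± 0.0736% with RBM25, and the groups did not overlap. The difference between Eif2b2 and the other subunits was not tested beyond these values.

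The 3 subunit genes of eIF2 were each slightly above control on average, and none passed (edgeR adjusted p = 0.443 or more). The one at an unadjusted p under 0.05 was Eif2s1, the alpha subunit that the Eif2ak kinases phosphorylate. It was at 171, 162 and 164 CPM in the control replicates and at 178, 175 and 168 CPM in the RBM25 replicates, so RBM25 replicate 3 lay below control replicate 1. Its log2 change was 0.070 ± 0.034 (SE), against 0.039 ± 0.033 for Eif2s2 and 0.030 ± 0.032 for Eif2s3, whose groups also overlapped. Leaving out 1 library kept the sign but moved the size, to between 0.0097 (without RBM25 replicate 3) and 0.063 (without RBM25 replicate 1) for Eif2s2, and between 0.011 (without control replicate 2) and 0.049 (without control replicate 1) for Eif2s3. By DESeq2 none of the 3 was called and none had an unadjusted p under 0.05. The 95% intervals of the 3 genes reached from -2.49% to 10.1%.

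The messages of eIF2 were also set against those of its exchange factor. The summed FPKM of the 3 eIF2 subunits was 1.62, 1.55 and 1.60 times that of the 5 eIF2B subunits in the control replicates, and 1.70, 1.74 and 1.74 times in the RBM25 replicates. Every RBM25 library was above every control library. With Eif2b2 left out of the sum the ratio was 2.69 ± 0.0481 in controls and 2.81 ± 0.0309 with RBM25 (SD, n = 3), and the groups still did not overlap. These ratios describe the 6 libraries. They were chosen with earlier results known and were not tested.

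**Figure D4:**
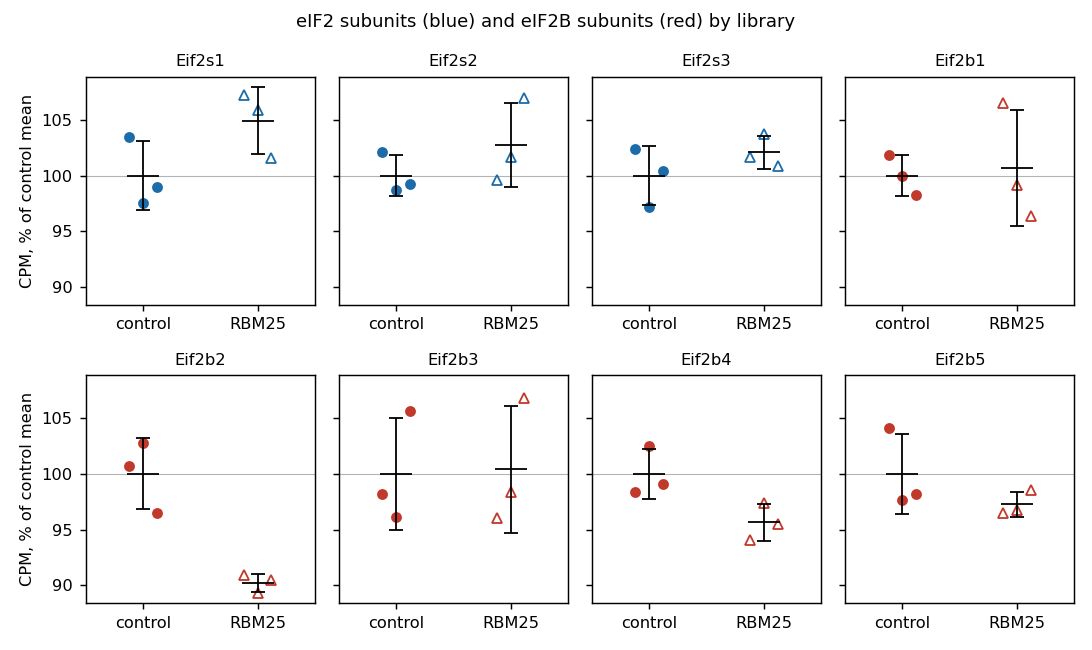
CPM of the 3 eIF2 subunit genes and the 5 eIF2B subunit genes in each library, as a percent of the gene's control mean (vertical axis), with the mean and SD of each group of 3 as bars. Eif2b2 is the gene whose RBM25 libraries sit farthest from its control libraries, Eif2b4 also has no overlap, and the other 6 genes overlap.

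Of the genes of eIF3, the largest initiation complex, none of 13 was called by edgeR or by DESeq2, and each tool gave 1 gene above and 1 below control at an unadjusted p under 0.05. Their log2 changes lay between -0.065 and 0.093, with 6 above 0, 7 below and a median of -0.0023. That median is so near 0 that its sign differed between fits that leave out 1 library (-0.0060 to 0.0077). The 95% intervals of all 13 genes were within -8.33% and 11.6%.

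Among the 8 subunits that form the octameric core of eIF3, 5 were above 0 and 3 below. Eif3m, a core subunit, was the highest of the 13. It was at 213, 206 and 208 CPM in the control replicates and at 219, 223 and 226 CPM in the RBM25 replicates, with no overlap (log2 change 0.093 ± 0.032 SE, edgeR adjusted p = 0.230). Eif3f, another core subunit and the most abundant message of the complex at 330 ± 2.50 FPKM in controls, was the lowest. It was at 452, 456 and 448 CPM in the control replicates and at 424, 433 and 439 CPM in the RBM25 replicates, again with no overlap (log2 change -0.065 ± 0.030, edgeR adjusted p = 0.402). The core subunit listed as Eif3el1 was at 193, 179 and 192 CPM and at 196, 195 and 201 CPM (log2 change 0.070 ± 0.034, adjusted p = 0.454). Fitted values for genes of 1 stable complex thus lay on both sides of 0, and none was called. The intervals of 11 of the 13 genes include 0. Whether subunit genes of eIF3 changed in opposite directions was not tested.

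The Eif3el1 row is on chromosome 7 in the deposited table. RefSeq's table for the assembly GRCr8 gives that name as a synonym of Eif3e on chromosome 7 and also as the symbol of a gene on chromosome 1, so the row may stand for Eif3e. Outside the core, the genes for Eif3b, Eif3d, Eif3g, Eif3i and the loosely bound Eif3j had log2 changes of -0.027 to 0.027. Eif3j was also the least abundant of the complex, at 26.2 ± 1.02 FPKM, 12.6 times below Eif3f. Eif3l and Eif3m, at 151 ± 0.745 and 151 ± 2.83 FPKM in controls, did not differ beyond their spread.

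In the eIF4 group none of the 15 tested genes was called by edgeR, where 1 above and 3 below control had an unadjusted p under 0.05; DESeq2 gave the same counts. Of the 15 log2 changes 10 were below 0, and the median was -0.024. The balance rested on single libraries: leaving out control replicate 1 gave a median of 0.0085, and leaving out control replicate 3 gave -0.046. The group ranges from the abundant helicase Eif4a1 to Eif4e3, 148 times apart in control FPKM, and Eif4e3 and Eif4ebp3, with 212 to 424 reads per library, had the widest intervals (-9.70% to 21.2% and -0.276% to 26.6%).

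Of the cytoplasmic helicases, Eif4a1 was at 958 ± 37.1 CPM in controls and 941 ± 36.1 CPM with RBM25 (SD, n = 3), well within its spread (log2 change -0.024 ± 0.032 SE, edgeR adjusted p = 0.829). Its close relative Eif4a2 was at 183, 181 and 185 CPM in the control replicates and at 194, 195 and 195 CPM in the RBM25 replicates. The Eif4a2 groups did not overlap, but it did not pass (log2 change 0.087 ± 0.031, edgeR adjusted p = 0.255). Eif4a2 took 15.7 ± 0.563% of the summed FPKM of both genes in controls and 16.8 ± 0.574% with RBM25, and these shares overlapped between the groups. Reads of such similar genes may be split by counting. Eif4a3, the helicase of the exon junction complex, had a log2 change of -0.037 ± 0.033.

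Of the scaffold genes, Eif4g1 was at 462, 443 and 432 CPM in the control replicates and at 432, 420 and 409 CPM in the RBM25 replicates, so the groups met at RBM25 replicate 1 and control replicate 3 (log2 change -0.082 ± 0.032 SE, edgeR adjusted p = 0.311). Eif4g3, which can replace it, had a log2 change of 0.049 ± 0.040. In FPKM, Eif4g3 took 5.81 ± 0.178% of the sum of Eif4g1 and Eif4g3 in controls and 6.33 ± 0.334% with RBM25 (SD, n = 3). These shares did not overlap, by a narrow margin (5.98% in control replicate 3, 5.99% in RBM25 replicate 1), and were not tested. Eif4g2, an eIF4G relative that does not bind eIF4E, had a log2 change of -0.0084 ± 0.029. Eif4b and Eif4h encode cofactors of the helicase, and both were below 0, at -0.072 ± 0.032 and -0.058 ± 0.033 (adjusted p = 0.392 and 0.527). Without RBM25 replicate 3, the library that stood apart, Eif4b reached -0.10 (edgeR adjusted p = 0.0432). That fit called 352 genes over all, against 52 with all 6 libraries. In RBM25 replicate 3 Eif4b was at 416 CPM, within the control range of 414 to 422 CPM. RBM25 replicates 1 and 2 were at 383 and 395 CPM.

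For cap binding, no gene was called. Eif4e had a log2 change of -0.015 ± 0.039 (SE), with overlapping groups, and Eif4e2, a cap-binding relative that can repress translation, had a log2 change of 0.019 ± 0.040. Among the eIF4E-binding proteins, Eif4ebp2 had the smallest p of the eIF4 group. It was at 251, 250 and 250 CPM in the control replicates and at 240, 236 and 229 CPM in the RBM25 replicates, with no overlap (log2 change -0.091 ± 0.031 SE, edgeR adjusted p = 0.240). Eif4ebp3, with 256 to 424 reads per library, had the largest fitted value of all 48 genes, 0.17 ± 0.084, or 12.3% (edgeR adjusted p = 0.466). Its groups did not overlap, by a narrow margin (11.08 CPM in control replicate 2, 11.12 CPM in RBM25 replicate 2). Eif4ebp1, the dominant member of the family with 85.8 ± 0.357% of its summed FPKM in controls, had a log2 change of -0.041 ± 0.034. The ratio of the 3 binding proteins to Eif4e in FPKM was 13.2 ± 1.07 in controls and 13.0 ± 0.653 with RBM25, and the groups overlapped.

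**Figure D5:**
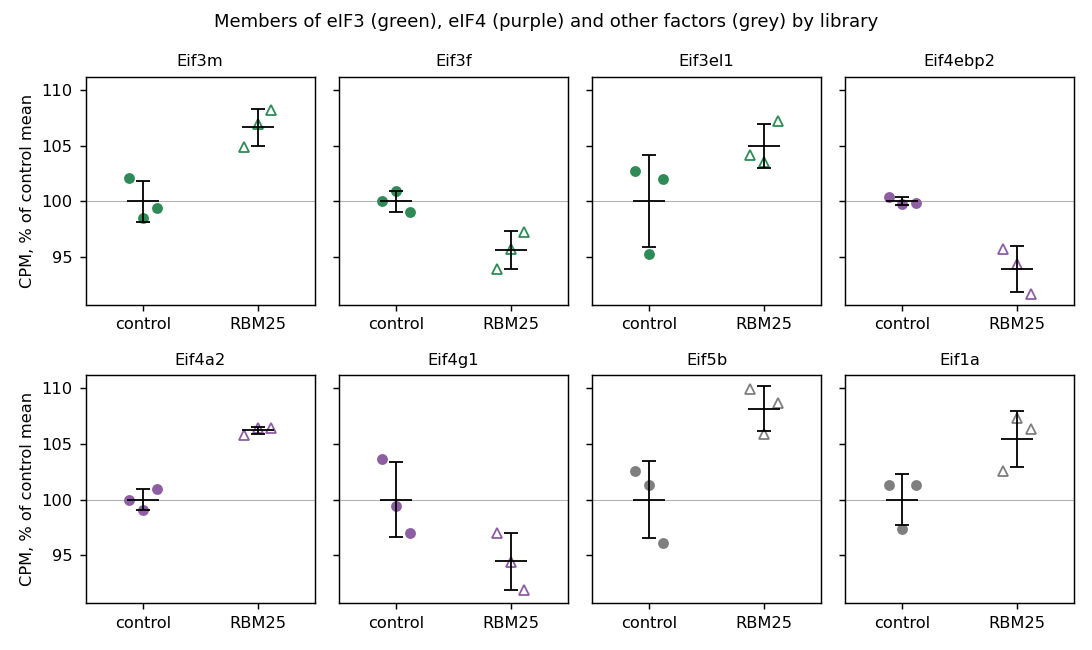
CPM in each library of the 3 eIF3 genes, 3 eIF4 genes and 2 other factors with the smallest p of their set, as a percent of the gene's control mean (vertical axis), with the mean and SD of each group of 3 as bars. All 8 shifts are within the span of Eif4ebp2 (-6.09%) to Eif5b (8.24%), and none passed the adjusted threshold.

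Of the 12 factors outside these complexes none was called by edgeR or DESeq2, with 2 and 1 genes at an unadjusted p under 0.05, all above control. The median log2 change was 0.018, which became 0.056 when control replicate 1 was left out and -0.0074 when control replicate 3 was. Eif5b, the GTPase that joins the ribosomal subunits, had the smallest p. It was at 115, 114 and 108 CPM in the control replicates and at 124, 119 and 122 CPM in the RBM25 replicates, with no overlap (log2 change 0.11 ± 0.035 SE, edgeR adjusted p = 0.153). Eif1a, which helps scanning, was at 102, 98.1 and 102 CPM and at 103, 108 and 107 CPM, also with no overlap (log2 change 0.076 ± 0.035, adjusted p = 0.403). Its X-linked relative Eif1ax, which is 1.47 ± 0.0425 times as abundant in control FPKM, had a log2 change of 0.028 ± 0.033.

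Eif2d, a factor that can deliver transfer RNA without GTP, had a log2 change of -0.056 ± 0.036 (edgeR adjusted p = 0.595) with overlapping groups. Eif5a was at 1474 ± 17.0 and 1431 ± 48.3 CPM (SD, n = 3; log2 change -0.043 ± 0.028, adjusted p = 0.605). Eif5a2, read 463 to 558 times per library, was at 17.0 ± 1.42 and 16.9 ± 0.635 CPM. The remaining factors were Eif1, Eif1ad, Eif1b, Eif2a, Eif5, which makes eIF2 hydrolyse its GTP, and Eif6, which keeps the ribosomal subunits apart. They had log2 changes between -0.046 and 0.039.

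The factors that act on initiation, or follow it, were taken from a list of 47 genes, of which 46 are in the table and 45 could be tested. A single one was called, beside a share of 0.404% over all genes tested. Eif2ak2, the kinase PKR that double-stranded RNA activates and that phosphorylates Eif2s1, rose by 17.4% (95% interval 10.6% to 24.7%). It was at 68.2, 66.3 and 65.6 CPM in the control replicates and at 77.2, 74.2 and 83.6 CPM in the RBM25 replicates, without overlap (log2 change 0.23 ± 0.042 SE, edgeR adjusted p = 0.00729). This call was lost without control replicate 2 (0.162) or control replicate 3 (0.0871). It was also lost by limma-trend on log2(FPKM + 1) (limma adjusted p = 0.330) and on log2(FPKM + 0.1) (0.327). Eif2ak2 is also inducible by interferon, and it is a gene chosen with earlier results known. The other 3 eIF2 kinases, Eif2ak1, Eif2ak3 and Eif2ak4, had log2 changes of 0.027, -0.056 and 0.018, and the phosphatase subunits Ppp1r15a and Ppp1r15b, which reverse the phosphorylation, had -0.076 and 0.027. Phosphorylation itself was not measured.

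Of the 13 regulators of the cap complex none was called by edgeR or DESeq2; 1 above and 2 below control had an unadjusted p under 0.05 by edgeR, and 0 and 1 by DESeq2. Mknk2, a kinase of eIF4E, came nearest, at 128, 139 and 135 CPM in the control replicates and 118, 125 and 120 CPM in the RBM25 replicates (log2 change -0.14 ± 0.036 SE, edgeR adjusted p = 0.0685). It was called by edgeR without control replicate 1 (-0.17, edgeR adjusted p = 0.0391) and without RBM25 replicate 3 (-0.14, 0.0192). With all 6 libraries it was also called when low counts were not filtered (-0.14, 0.0167). Those fits called 53, 352 and 205 genes over all, against 52 with all 6 libraries and the filter. The kinase gene Mtor was at -0.074 ± 0.051. Of the 13 poly(A)-binding and scanning partners none was called, with 2 above control at an unadjusted p under 0.05 by either tool, the helicase genes Dhx36 (0.18 ± 0.057, edgeR adjusted p = 0.183) and Ddx3x (0.098 ± 0.033, 0.227). Of the 8 tested genes listed under elongation, the kinase gene Eef2k among them, none was called, with 3 below control at an unadjusted p under 0.05 by either tool. By edgeR 11.2% of all tested genes had such a p, in either direction. The elongation kinase Eef2k was at 43.5 ± 1.93 and 38.7 ± 0.423 CPM (-0.17 ± 0.048, edgeR adjusted p = 0.116) and its substrate Eef2 at 3883 ± 44.6 and 3682 ± 103.5 CPM (-0.077 ± 0.026, 0.218). Without RBM25 replicate 3, where 352 genes were called over all, both were called (Eef2k -0.18, edgeR adjusted p = 0.0413, and Eef2 -0.10, 0.00542). With all 6 libraries neither was called. The number of genes tested without RBM25 replicate 3 is not given here, so 2 of 8 has no share to be read against. Of the partners in this paragraph, Mknk2, Mtor, Dhx36, Ddx3x, Eef2k and Eef2 were named after their values were seen. The 2 termination factors Etf1 and Gspt1 were not called (0.067 ± 0.033 and 0.035 ± 0.035), and neither had an unadjusted p under 0.05 by either tool. Over the 45 tested partners the median log2 change was -7.49e-04, with 22 above 0 and 23 below.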

How the data were processed

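Poly(A) RNA of 6 libraries was made into strand-specific libraries and read from both ends, per the labels' protocols. The deposited tables were made by the authors and hold raw read counts per gene (whole numbers, not normalized) and FPKM values rounded to 2 decimals. Per the submitters' processing notes the tools were HISAT2 and DESeq2 and the genome was mRatBN7.2; the program, annotation and strand setting of the counting were not given in the sources used here, so overlapping and near-identical genes are uncertain. RefSeq's table of the assembly GRCr8 names 74 pseudogenes after 28 of the 49 members, none of them an eIF2B subunit; the build differs from that of the files, so it was used for names and neighbours only.

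Counts were fitted over the whole table with edgeR 4.0.16 in R 4.3.3 (filterByExpr with a minimum count of 10, TMM factors, robust quasi-likelihood F-test, group as the only term) and adjusted by Benjamini-Hochberg over 12882 genes; a call is an adjusted p under 0.05. CPM values are scaled by the TMM factors, 0.996 to 1.01. SE is the size of the log2 fold change divided by the square root of F, and intervals are 95%. Percent changes are taken from the fitted log2 fold changes. DESeq2 1.42.0 and limma 3.58.1 (limma-trend on log2(FPKM + 1), mean FPKM at least 0.5) were alternatives, and the fits were checked on simulated data. Total counts were 25543849 to 33130256 per library. No 2 replicates agreed within sampling noise.

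The members, the partner list and the ratios were chosen with earlier results of these data known. The genes named are Rbm25, called members, the 3 smallest p and the highest and lowest FPKM of each set, and called partners (22 genes); other genes were named after their values were seen.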

Additional observations from a re-analysis of the deposited data

How the results depend on the processing

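The number of genes called over the whole table was 52, and it was 205 with no filter on low counts, 2 and 3 by limma-trend on log2(FPKM + 1) and log2(FPKM + 0.1), and 5 to 352 when 1 library was left out. For the initiation factors the count of 1 became 0 with DESeq2 and with both FPKM fits, and 0 to 2 when 1 library was left out. For the partner list the count of 1 became 2 with no filter and 0 with both FPKM fits, and 0 to 4 when 1 library was left out. Rbm25 kept its direction (0.27 to 0.35 when 1 library was left out) and was not called on FPKM, at 0.28 and 0.30. When 1 library was left out, the median was 0.031 to 0.056 for eIF2, -0.050 to -0.0084 for eIF2B and -0.0060 to 0.0077 for eIF3. The median was -0.046 to 0.0085 for eIF4 and -0.0074 to 0.056 for the other factors. Of 60 medians recomputed over all the alternative fits, 55 moved by less than the spread between replicates. These fits use all 6 libraries again or drop 1, so they share most of their data with the main fit. The count of 55 is therefore no measure of how stable the medians are. The 5 medians that moved more all came from fits that left out control replicate 1 or 3. The sign of 15 of the 48 tested initiation factors, with log2 changes of -0.027 to 0.065 over all libraries, changed in at least 1 fit that left out a library. Among those named by the rule, Eif4a1 ranged from -0.052 to 0.0088 (above 0 without control replicate 1, and at 0.0015 without RBM25 replicate 3), Eif4e3 from -0.015 (without RBM25 replicate 3) to 0.18, and Eif5a2 from -0.044 to 0.063 (above 0 without control replicate 1, and at 0.014 and 0.0071 without RBM25 replicate 1 and 3). The cause of these changes was not tested. With the replicate number as a block, 436 genes were called over all, 2 initiation factors (Eif2b2 and Eif5b, at 0.11 with an edgeR adjusted p of 0.0142) and 6 partners. In simulated data the block fit made 140 calls, 20 of them on genes without a change, where edgeR without the block made 129 and 12. Same-numbered libraries share a number in the labels, and whether they were paired in the experiment is not stated there. The deviations of same-numbered libraries from the group means correlated at 0.054, -0.067 and -0.0059. Not every library correlated best with its own number. At its depth of 1 read, Eif4e1b could not be tested.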

Other observations

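The count table also lists 18 protein-coding genes that are described as initiation factors or factor-like but have other symbols. The most read of them was Ctif, a partner of the nuclear cap-binding complex, at 71.5 ± 1.91 CPM in controls and 70.5 ± 0.299 CPM with RBM25 (SD, n = 3; log2 change -0.020 ± 0.037 SE, edgeR adjusted p = 0.892). LOC100365062, described as similar to subunit 6 of eIF3, had 1664 reads in the control and 1687 in the RBM25 libraries (-0.10 ± 0.071, adjusted p = 0.630). None of the 6 that could be tested was called by edgeR, and none had an unadjusted p under 0.05.

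In RefSeq's GRCr8 table Eif2b2 overlaps no other protein-coding gene, and 39 protein-coding genes lie between it and Rbm25 on chromosome 6. Its nearest neighbours on either side are Pgf, at 3.75 ± 0.552 and 3.02 ± 0.353 CPM (log2 change -0.32 ± 0.15 SE, edgeR adjusted p = 0.411), and Mlh3, at 5.25 ± 0.135 and 5.16 ± 0.499 CPM (-0.021 ± 0.12, adjusted p = 0.971). Both overlapped between the groups. These genes were chosen after the values of Eif2b2 were seen.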
